A study of Peromyscus maniculatus with 6 samples.

Results

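Genes of cartilage matrix and of chondrocytes, the cells that make cartilage, were followed in primary fibroblasts grown from the ear punches of 4-week-old BW-stock animals of Peromyscus maniculatus, the deer mouse. Of 42 listed symbols, 38 name a row of the deposited count table, out of 24281 genes in all. Lect1, Epyc, Col11a1 and Mia name no row there; Lect1 is an older symbol of Cnmd, which does, and the other three are not analysed here. The symbols were chosen by the known roles of the genes. Differences between the animals' cultures in cartilage collagens, Col2a1 among them, had been seen before that. Levels by animal are therefore given below as a description with no test. The tunicamycin group holds 1 library from each of animals BW35772, BW35773 and BW35770, whose cells were plated at 300000 per well, grown for 24 h and treated with tunicamycin (5 mg per mL in the labels, not checked here) for 5 h. The control group holds 1 library from each of the same animals, and the sources used here do not name its vehicle. No allele or transgene is named for any animal. Libraries held 40698179 to 49352126 counts on genes in the tunicamycin group and 37852385 to 43367273 in the control group.

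Cartilage is a fibre network filled with water-binding proteoglycan. Its fibrils are built of collagen II with collagens XI and XXVII, and carry collagen IX on their surface. Aggrecan, the large proteoglycan, is held on hyaluronan by link protein. In mouse and human chondrocytes SOX9, with SOX5 and SOX6, drives most of these genes. The outer ear has a plate of elastic cartilage, so an ear punch can hold both dermis and cartilage. Tunicamycin inhibits the enzyme that starts the N-glycan precursor, and misfolded glycoproteins then collect in the endoplasmic reticulum. Collagens and other secreted matrix proteins pass through that compartment.

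The cultures, labelled as fibroblasts, held marker RNAs of both cell types. All 17 fibroblast markers found in the table had a mean of at least 1 CPM (counts scaled to library size, the libraries being balanced by TMM, the trimmed mean of M values). Of the 37 cartilage genes that passed the filter on low counts, 33, 33 and 32 reached 1 CPM in the tunicamycin libraries of BW35772, BW35773 and BW35770, against 36, 34 and 33 in their control libraries. That filter had already removed genes of very low count, so these numbers are high in part by construction. Not all of these genes are particular to chondrocytes, and Matn1, Chad, Ihh, Cilp2 and Col10a1 had a mean under 1 CPM. Together the 38 genes took 1.33%, 0.916% and 0.392% of the counts in the tunicamycin libraries and 1.23%, 1.09% and 0.361% in the controls, in that order of animals. In a bulk library, fewer cells of a type and less RNA per cell cannot be told apart. All 8 checked genes of the unfolded protein response found in the table rose in the tunicamycin group, among them Ddit3 (CHOP) at 3.92 ± 0.22 on the log2 scale (SE; quasi-likelihood test of edgeR with the animal as a block, adjusted p = 0.00023, n = 3 animals), so the treatment labels match the libraries.

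With tunicamycin, 1 of the 37 tested cartilage genes rose, the ubiquitin ligase Wwp2, and 1 fell, the proteoglycan Prelp. The other 35 did not pass the threshold (edgeR, adjusted p under 0.05 over all 13503 tested genes). Over all tested genes 3.07% rose and 2.40% fell, so both counts lie near the background of the whole table. The median log2 fold change of the 37 was -0.14, against -0.03 over all tested genes. At an unadjusted p under 0.05 there were 2 cartilage genes higher and 9 lower in the tunicamycin group, beside 10.4% higher and 10.5% lower over all tested genes. The direction was upward in all 3 animals for 5 of the 37 and downward in all 3 for 12, against 20.7% and 21.8% of all tested genes.

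The levels of these genes differed between the animals' libraries. The median range between the 3 animals' mean levels was 1.502 on the log2 scale for the 37 genes and 0.37 over all tested genes. Both libraries of BW35770 lay below the other 4 libraries for 25 of the 37 genes, and above them for 4, against 8.92% and 10.5% of all tested genes. For 10 of the 37 the mean level was also at least 4-fold lower in BW35770, against 0.770% of all tested genes. These were Col2a1, Col9a1, Col9a2, Col10a1, Col11a2, Comp, Fmod, Cnmd, Ibsp and Clec3a. Since the list was drawn up knowing of differences between animals in cartilage collagens, these shares describe the cultures and test nothing. Each animal is represented by its own culture, and an effect of the animal and one of its culture cannot be told apart.

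**Figure D1:**
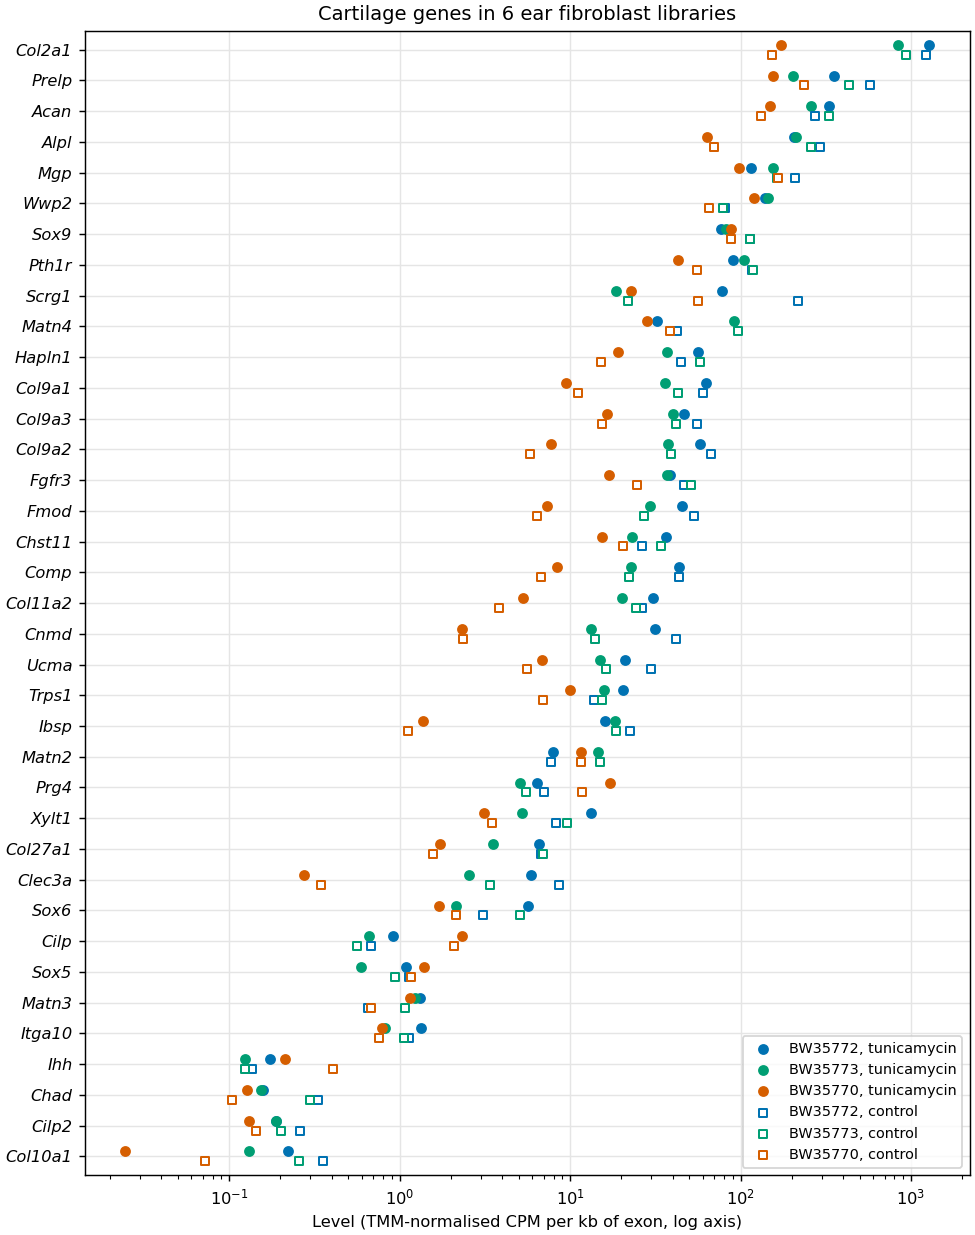
Level of 37 cartilage genes (TMM-normalised CPM per kb of exon, log axis), 1 row per gene ordered by mean level; filled circles are tunicamycin libraries, open squares control libraries, colours animals. BW35770, in orange, lies to the left for most genes. For Col2a1, Comp, Col9a1 and Col9a2 the circle and square of an animal lie closer than the animals do.

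Among transcription factors, Sox9, the main regulator of chondrocyte identity, was nearly level between animals. It stood at 208.9, 223.9 and 237.7 CPM in the tunicamycin libraries of BW35772, BW35773 and BW35770, against 308.2, 309.3 and 238.6 CPM in their controls. The groups did not overlap, but the gap in BW35770 was under 1 CPM. The log2 fold change was -0.34 ± 0.14 (SE, n = 3; edgeR adjusted p = 0.211), with a 95% interval from -0.67 to -0.02. Mean Sox9 in BW35772 and BW35773 was 1.08-fold that in BW35770. For Sox6 the same ratio was 1.93, for Sox5 0.716 and for Col2a1, a direct SOX9 target in mouse, 6.50. Whether these differences are linked was not tested.

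Sox6, which acts with SOX9, did not keep 1 direction over the animals. It stood at 28.5, 10.8 and 8.61 CPM in the tunicamycin libraries and 15.5, 25.5 and 10.8 CPM in the controls of BW35772, BW35773 and BW35770, a log2 difference of 0.88 in BW35772, -1.23 in BW35773 and -0.33 in BW35770. With 1 pair per animal, that difference between animals was not tested. In the fit of all animals Sox6 was not called (log2 fold change -0.23 ± 0.36), and with the pair of BW35772 left out edgeR called it lower. Sox5, its close relative, stayed between 4.26 and 10.0 CPM over the 6 libraries (log2 fold change -0.16 ± 0.23). Trps1, a GATA-type repressor active in growth-plate cartilage, was higher in the tunicamycin library of every animal, with 80.6, 62.2 and 39.3 CPM with tunicamycin against 54.4, 61.0 and 27.6 CPM in the controls, and did not pass the threshold (log2 fold change 0.37 ± 0.14, edgeR adjusted p = 0.200, n = 3 animals). It was called with the pair of BW35773 left out, and had an edgeR adjusted p of 0.736 without the block.

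Of the fibril collagens, Col2a1, the chain of collagen II (ENSPEMG00000012994, scaffold KI615359.1, bases 5628456 to 5657967, 54 exons in the table), had the highest mean level per length of the 38 genes over the 6 libraries, and was first in 5 of them. In the control library of BW35770 it stood at 152 CPM per kb, below Prelp at 237 and Mgp at 166 CPM per kb. It stood at 6259.6, 4095 and 842 CPM in the tunicamycin libraries of BW35772, BW35773 and BW35770, against 5999, 4538 and 743 CPM in their controls. The 2 groups overlapped fully, and the 2 libraries of each animal lay close together. The log2 fold change was 0.03 ± 0.13 (SE, n = 3; edgeR adjusted p = 0.919), and its 95% interval from -0.27 to 0.33 corresponds to 0.830-fold to 1.26-fold. Ranked by CPM per kb of exon among all genes, Col2a1 was 37th, 128th and 474th in the tunicamycin libraries and 70th, 108th and 636th in the controls.

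Collagen II was set against collagen I, the main collagen of dermal fibroblasts. Per kb of exon Col2a1 stood at 2.11, 1.93 and 0.610 times Col1a1 in the tunicamycin libraries of BW35772, BW35773 and BW35770, and at 2.53, 2.02 and 0.808 times in their controls. It thus exceeded Col1a1 in the 4 libraries of BW35772 and BW35773 and not in those of BW35770. The ratio to Col1a2, the other chain of collagen I, was 2.31, 1.73 and 0.436 with tunicamycin, in the same order of animals. In the controls it was 2.28, 1.42 and 0.388. Col11a2, a chain of collagen XI, which nucleates the fibril, had 160.1, 105.6 and 27.6 CPM with tunicamycin against 138.1, 126.6 and 20.1 CPM in the controls (log2 fold change 0.13 ± 0.15). Col27a1, another fibril collagen of cartilage, ranged from 10.3 to 45.7 CPM and was 3.49-fold higher in BW35772 and BW35773 than in BW35770. Its tunicamycin library in BW35773 held 23.2 CPM, against 45.7 CPM in that animal's control, while in the other pairs the libraries differed by at most 0.14 on the log2 scale.

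Collagen IX is assembled from 3 chains, and their RNAs had nearly the same level per length, with means of 37.1, 35.9 and 36.0 CPM per kb for Col9a1, Col9a2 and Col9a3 over the 6 libraries. The highest chain was 1.34 and 1.105 times the lowest in the tunicamycin libraries of BW35772 and BW35773, against 1.22 and 1.103 times in their controls. In BW35770, where the chains were low, it was 2.13 times with tunicamycin and 2.65 times in the control, Col9a3 being highest and Col9a2 lowest. The difference between animals was unequal for the chains. Col9a2 was 7.24-fold, Col9a1 4.80-fold and Col9a3 2.85-fold higher in BW35772 and BW35773 than in BW35770. None of the 3 passed the threshold for tunicamycin, with log2 fold changes from -0.14 to 0.04. Col10a1, the collagen of hypertrophic chondrocytes, had 0.804, 0.474 and 0.089 CPM with tunicamycin against 1.29, 0.926 and 0.26 CPM in the controls, from 4 to 47 counts per library. It was lower in the tunicamycin library of every animal, and the log2 fold change of -0.97 ± 0.46 did not pass the threshold (edgeR adjusted p = 0.282, n = 3 animals).

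**Figure D2:**
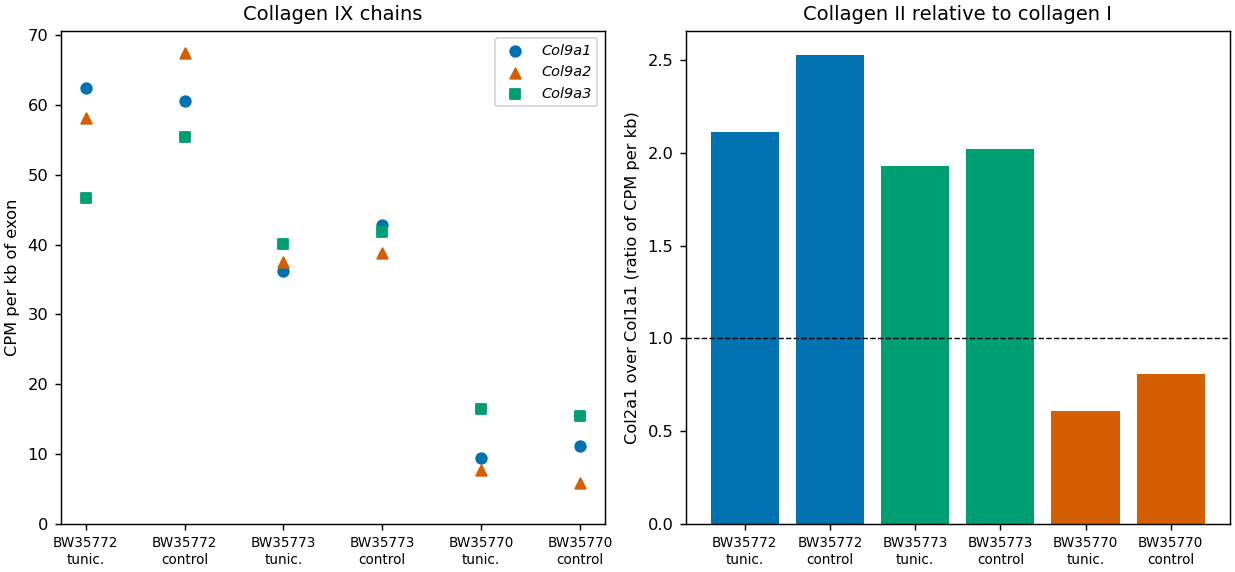
Left, level of the 3 collagen IX chains (CPM per kb of exon); right, ratio of Col2a1 to Col1a1 per kb of exon with a dashed line at 1; 1 position per library, tunicamycin beside control within each animal. All 3 chains are lowest in BW35770, where Col9a3 lies above the other chains and where the Col2a1 ratio, at 0.610 and 0.808, is below 1.

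Among proteoglycans, Acan, the core protein of aggrecan, stood at 2112.5, 1641 and 943 CPM in the tunicamycin libraries of BW35772, BW35773 and BW35770, against 1745, 2102 and 836 CPM in their controls. It was higher with tunicamycin in BW35772 and BW35770 and lower in BW35773. The log2 fold change was 0.03 ± 0.15 (SE, n = 3; edgeR adjusted p = 0.933). Hapln1, the link protein that fastens aggrecan to hyaluronan, differed in the same direction as Acan in each animal, with 102.8, 67.8 and 35.1 CPM with tunicamycin and 81.7, 106.0 and 27.8 CPM in the controls.

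Prelp, a leucine-rich proteoglycan that binds collagen and heparan sulphate (ENSPEMG00000011488, scaffold KI615972.1, bases 191127 to 201289), fell to 851, 486.5 and 371 CPM in the tunicamycin libraries, against 1385, 1031 and 568 CPM in the controls. It was lower with tunicamycin in all 3 animals, although the groups overlapped because the animals differed. The log2 fold change was -0.80 ± 0.13, or 0.574-fold (SE, n = 3; edgeR adjusted p = 0.0191), and the differences within animals were -0.70, -1.08 and -0.61. Without the animal as a block the call was lost (adjusted p = 0.387), and so it was without the pair of BW35770 (edgeR adjusted p = 0.185), at a log2 fold change of -0.89; that smaller fit called 74 genes higher and 37 lower in all.

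Fmod, fibromodulin, a related regulator of fibril thickness, is the next gene in the table on one side of Prelp, on the same scaffold at bases 65851 to 77551, on the opposite strand, with 113575 bases and no listed gene between them. Its log2 fold change was 0.02 ± 0.13 (n = 3 animals; adjusted p = 0.956 in edgeR), with 134.8, 87.3 and 21.7 CPM with tunicamycin against 159.0, 80.6 and 19.0 CPM in the controls. That contrast between the neighbours was not tested. Prg4, lubricin, the lubricant of joint surfaces, was one of 4 genes higher in both libraries of BW35770 than elsewhere, with 20.3, 15.9 and 53.7 CPM with tunicamycin and 22.1, 17.4 and 37.1 CPM in the controls. Prg4 shares 45 exon bases with Tpr on the opposite strand. Chad, chondroadherin, which links collagen to integrins, was low, with 0.402 to 1.29 CPM.

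Of the matrix adaptors, which bridge collagen and proteoglycan, Comp (cartilage oligomeric matrix protein) held 106.5, 56.0 and 20.4 CPM with tunicamycin and 106.3, 53.9 and 16.6 CPM in the controls of BW35772, BW35773 and BW35770. The 2 libraries of each animal were close, and the log2 fold change was 0.11 ± 0.12 (SE, n = 3, edgeR adjusted p = 0.650). The matrilins did not share a pattern between animals. Matn4 was highest in BW35773, with 72.7, 204.6 and 63.9 CPM with tunicamycin against 95.7, 216.8 and 86.5 CPM in the controls (log2 fold change -0.31 ± 0.12, edgeR adjusted p = 0.200, n = 3 animals). It shares 71 exon bases with Rbpjl on the opposite strand. Matn2 lay between 28.3 and 55.2 CPM, lowest in BW35772, with a log2 fold change of 0.005 ± 0.12. Matn3, a growth-plate matrilin, had 2.16, 2.02 and 1.87 CPM with tunicamycin and 1.07, 1.75 and 1.11 CPM in the controls; the groups did not overlap, and the log2 fold change of 0.65 ± 0.33 did not pass the threshold. Matn1, the first-described cartilage matrilin, had 2 counts in the tunicamycin library of BW35770 and 0 counts in the other 5 libraries, where a count of 0 allows up to 0.0574 to 0.0822 CPM (3 counts, counting error only). It was the 1 gene of the 38 that did not pass the filter. Cilp, a protein of the middle cartilage layer, was highest in BW35770, with 3.60, 2.62 and 9.13 CPM with tunicamycin against 2.69, 2.23 and 8.25 CPM in the controls, and its relative Cilp2 stayed at 0.534 to 1.07 CPM.

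Among small secreted and surface proteins the animals differed most for Cnmd and Clec3a. Cnmd, chondromodulin, which keeps vessels out of cartilage, held 43.3, 18.2 and 3.16 CPM with tunicamycin and 56.9, 19.3 and 3.24 CPM in the controls of BW35772, BW35773 and BW35770. Clec3a, a C-type lectin of cartilage, held 17.3, 7.46 and 0.801 CPM with tunicamycin against 25.0, 9.96 and 1.02 CPM in the controls. By mean log2 CPM, the level in BW35772 and BW35773 was 9.41-fold that in BW35770 for Cnmd and 14.2-fold for Clec3a. Clec3a was lower with tunicamycin in all 3 animals. Its log2 fold change of -0.44 ± 0.17 did not pass the threshold (edgeR adjusted p = 0.199, n = 3 animals). Ucma, a mineralization inhibitor of cartilage, ranged from 5.30 to 28.4 CPM in the same order of animals.

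Scrg1, a small protein first described in scrapie-infected brain and made by chondrocytes, had the largest negative fold change of the 37 genes. It stood at 51.3, 12.2 and 15.02 CPM with tunicamycin against 143.5, 14.4 and 37.0 CPM in the controls. The tunicamycin library was far lower in BW35772 and BW35770 and only slightly lower in BW35773. The log2 fold change was -1.03 ± 0.24, just outside the threshold (edgeR adjusted p = 0.0536, n = 3 animals), and DESeq2, limma-voom and the unfiltered edgeR fit called it lower. Without the animal as a block its edgeR adjusted p was 0.553. With 1 pair left out, edgeR called it without BW35772 (adjusted p = 0.0146) or BW35773 (0.00181), and not without BW35770 (0.394). Mgp, matrix Gla protein, which prevents calcification, held 71.3, 94.9 and 60.7 CPM with tunicamycin against 128.9, 101.1 and 102.2 CPM in the controls. The tunicamycin libraries lay below all controls, at a log2 fold change of -0.57 ± 0.17 (SE, n = 3; edgeR adjusted p = 0.103). DESeq2 called it lower, while its edgeR adjusted p was 0.208 without the block. With 1 pair left out, edgeR called it without BW35773 (adjusted p = 0.00889), and not without BW35772 (0.195) or BW35770 (0.624).

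Receptors of the growth-plate loop, in which Indian hedgehog and parathyroid hormone-related protein pace chondrocyte maturation, were present, while both ligands were scarce. Pth1r, the receptor of that second ligand, held 199.1, 232.8 and 94.7 CPM with tunicamycin and 257.9, 262.3 and 123.2 CPM in the controls. It was lower in all 3 animals (log2 fold change -0.31 ± 0.11; edgeR adjusted p = 0.163, n = 3 animals). Fgfr3, a growth factor receptor that restrains chondrocyte division, was likewise lower in all 3, with 171.6, 163.6 and 74.8 CPM with tunicamycin against 205.6, 227.6 and 110.0 CPM in the controls (log2 fold change -0.43 ± 0.11; edgeR adjusted p = 0.0783, n = 3 animals), and DESeq2 called it, while without the block the adjusted p was 0.702. Ihh held 11 to 38 counts per library, or 0.274 to 0.898 CPM, and Pthlh, which encodes parathyroid hormone-related protein, had 0.785, 0.898 and 1.58 CPM with tunicamycin and 0.767, 1.101 and 3.31 CPM in the controls. Itga10, the integrin chain that binds collagen II, stayed between 3.38 and 5.93 CPM with a log2 fold change of -0.03 ± 0.23.

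Both mineralization genes were low in BW35770. Alpl, tissue-nonspecific alkaline phosphatase, stood at 508, 523.5 and 157 CPM in the tunicamycin libraries of BW35772, BW35773 and BW35770, against 727, 642 and 172 CPM in their controls. Its mean in BW35772 and BW35773 was 3.61-fold that in BW35770, just under the 4-fold mark used above. It was lower with tunicamycin in all 3 (log2 fold change -0.32 ± 0.12; edgeR adjusted p = 0.196, n = 3 animals). Ibsp, bone sialoprotein, held 27.7, 31.9 and 2.38 CPM with tunicamycin against 38.9, 32.1 and 1.94 CPM in the controls. By mean log2 CPM, its level in BW35772 and BW35773 was 14.8-fold that in BW35770, the largest such ratio of the 38 genes. The range between the 3 animals' mean levels was widest for Clec3a, at 4.46 on the log2 scale, against 3.90 for Ibsp.

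**Figure D3:**
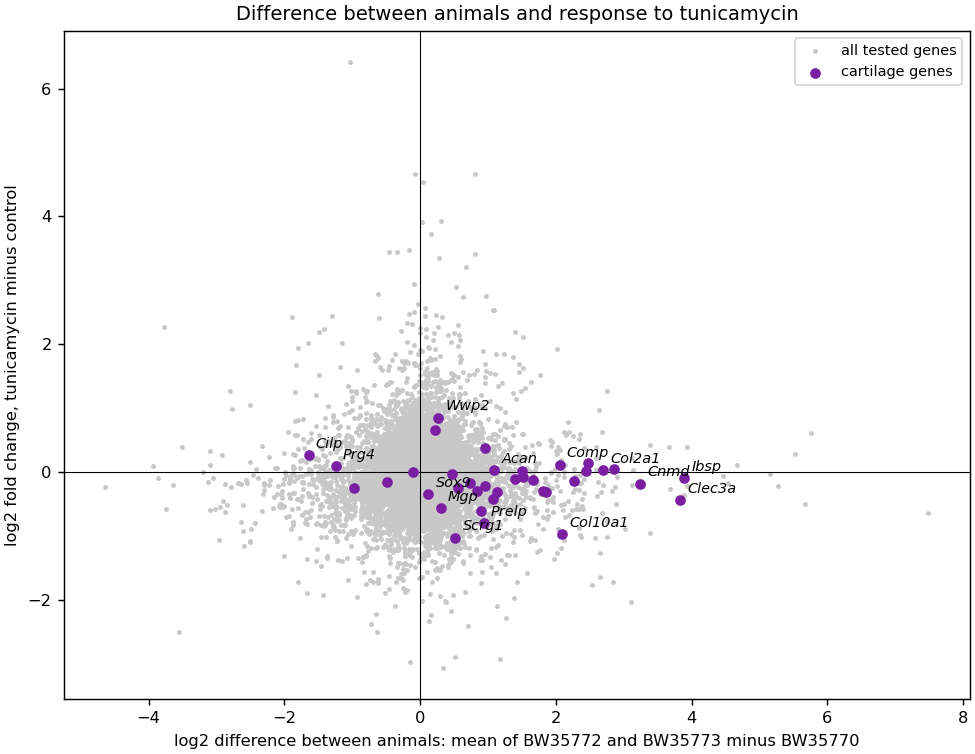
Log2 difference between animals (horizontal; mean of BW35772 and BW35773 minus BW35770) and log2 fold change with tunicamycin (vertical) for all 13503 tested genes in grey and 37 cartilage genes in purple. The cartilage genes spread to the right, up to Ibsp and Clec3a, and stay within about 1 log2 unit of 0 on the vertical axis.

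Wwp2, a HECT-type ubiquitin ligase whose gene carries the cartilage microRNA miR-140 in an intron in mouse and human, was the gene that rose (ENSPEMG00000012305, scaffold KI615356.1, bases 7520411 to 7662550, 25 exons in the table). It stood at 637, 666 and 549 CPM in the tunicamycin libraries of BW35772, BW35773 and BW35770, against 370.0, 361 and 299 CPM in their controls. Every tunicamycin library lay above every control. The log2 fold change was 0.85 ± 0.11, or 1.80-fold with a 95% interval from 1.51 to 2.15-fold (SE, n = 3, edgeR adjusted p = 0.00711). The differences within animals were 0.78, 0.88 and 0.88. Without the animal as a block it was also called (adjusted p = 0.0271). Without the pair of BW35770 the call was lost with edgeR (0.83 on the log2 scale, adjusted p = 0.172). It differed little between animals, at 1.20-fold. Clec3a lies on the same scaffold, 7104696 bases away with 78 genes between.

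The enzymes Xylt1, which starts the glycosaminoglycan chain, and Chst11, which sulphates chondroitin, differed in direction between animals, as Sox6 did. Xylt1 held 88.9, 35.1 and 20.9 CPM with tunicamycin and 55.1, 64.5 and 23.2 CPM in the controls, and Chst11 held 38.7, 24.4 and 16.2 CPM with tunicamycin against 27.8, 36.3 and 21.7 CPM in the controls. For both, the tunicamycin library was higher in BW35772 and lower in the other animals, and that difference was not tested.

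**Figure D4:**
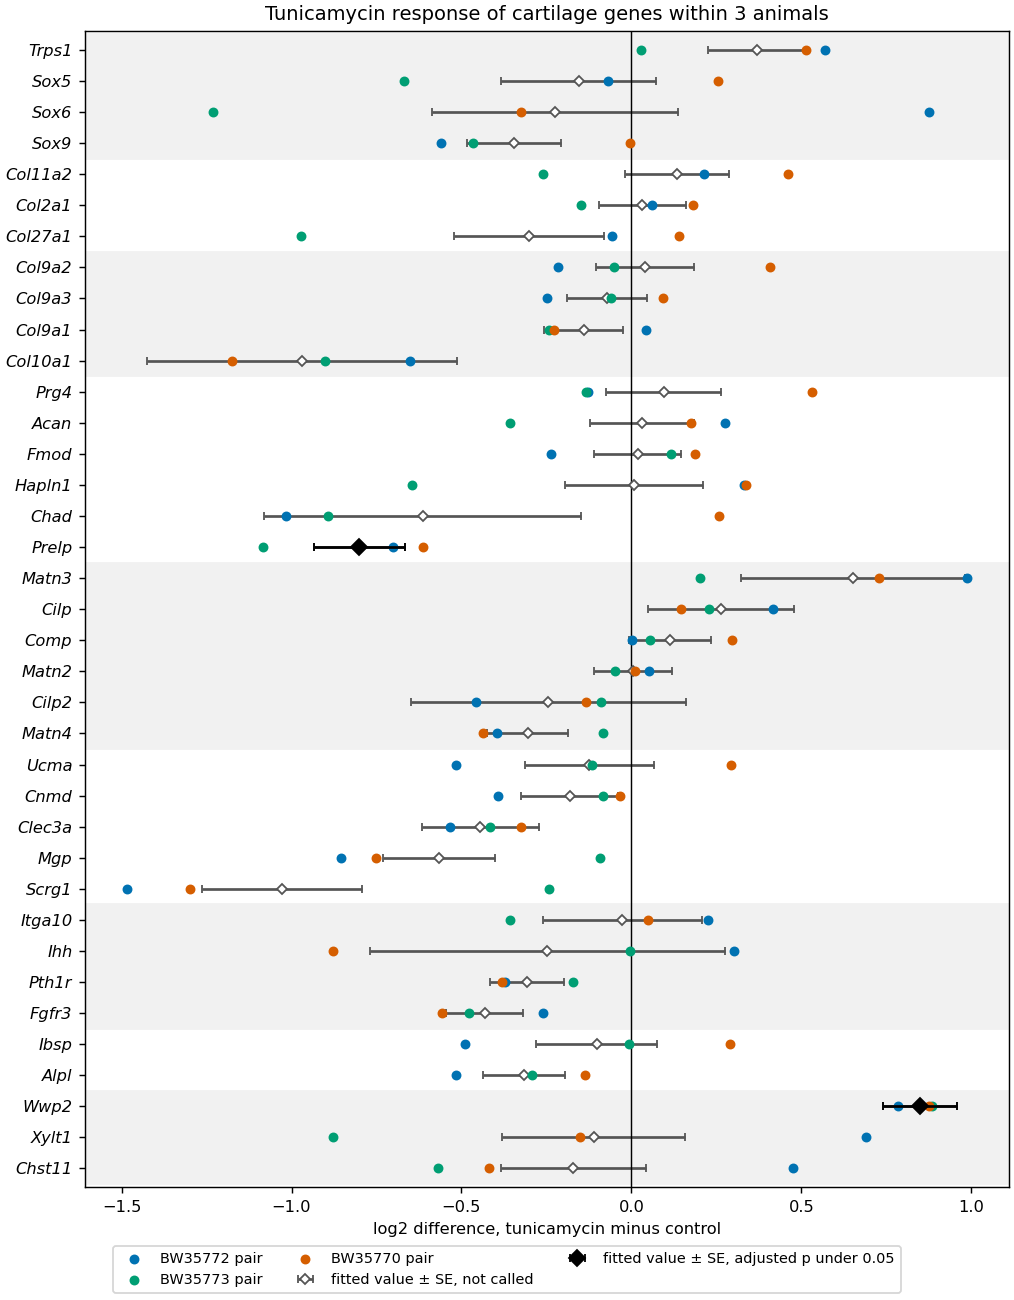
Log2 difference, tunicamycin minus control, of 37 cartilage genes grouped by role in alternating bands (from the top: transcription factors, fibril collagens, other collagens, proteoglycans, adaptors, small proteins, receptors and Ihh, mineralization, enzymes). Dots are the 3 animals and diamonds the fitted value ± SE; the filled diamonds, Prelp and Wwp2, passed the threshold.

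Genes that serve the same matrix were counted for comparison, beside 3.07% higher and 2.40% lower over all tested genes. Of 25 tested genes of glycosaminoglycan synthesis 0 rose and 1 fell, Chst12, another chondroitin sulphotransferase (24.5 CPM with tunicamycin and 44.6 CPM in controls; log2 fold change -0.87 ± 0.13). Of 37 cartilage regulators and signals 2 rose, Ddit3 and the stress sensor Atf6 (0.82 ± 0.18), and 3 fell. These were the osteoblast factor Sp7 (-2.10 ± 0.12), the hedgehog receptor Ptch1 (-1.18 ± 0.17) and the BMP antagonist Nog (-0.90 ± 0.13). Of 17 genes of matrix turnover 0 rose and 3 fell, the aggrecanase Adamts4 (-0.84 ± 0.15), the hyaluronidase Hyal2 (-0.87 ± 0.13) and the collagenase Mmp14 (-0.55 ± 0.11). Of 29 other cartilage-associated genes, a list that also holds Matn2, 0 rose and 1 fell, S100b, a calcium-binding protein and SOX9 target in mouse (-0.70 ± 0.12). Of 22 genes of procollagen folding and secretion 0 rose and 1 fell, the lysyl hydroxylase Plod1 (-0.63 ± 0.11). Beside Ddit3 and Sp7, adjusted p-values of the named genes ran from 0.0110 (Nog) to 0.0466 (Atf6) in edgeR. The 3 turnover genes of 17 and the 3 regulators of 37 that fell are larger shares than that background. The lists with 1 gene lower of 22 to 29 lie close to it. These lists were chosen with earlier results of these data known, so the shares describe them and test nothing. Ddit3, which rose, was also used above to check the treatment. The medians of these 5 lists lay between -0.29 and -0.17. Without the pair of BW35770 the calls for Chst12, Atf6, Ptch1, Nog, Adamts4, Hyal2, Mmp14, S100b and Plod1 were lost, in the same direction, and without the block those for Atf6, Nog, Mmp14, S100b and Plod1.

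By animal, 18 of the 29 other cartilage-associated genes, 10 of the 22 procollagen genes, 10 of the 25 glycosaminoglycan genes, 6 of the 37 regulators and 1 of the 17 turnover genes were lower in both libraries of BW35770 than in the other 4, against 8.92% of all tested genes. In the same order of lists, 2, 1, 1, 7 and 5 genes were higher there, against 10.5%. Low levels in BW35770 were therefore not confined to the 38 genes.

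Markers of other cells also differed between the animals, and their part in the difference of cartilage genes was not tested. All 13 tested cell cycle genes were lower in both libraries of BW35770 than in the other 4, with a median log2 difference of 1.00, against 8.92% of all tested genes, and the summed level of that list ran from 65.7 to 116 CPM per kb with tunicamycin and from 61.5 to 120 CPM per kb in controls. All 6 tested adipocyte genes were higher in both libraries of BW35770, against 10.5% of all tested genes, with a summed level of 58.8 to 155 CPM per kb with tunicamycin and 57.3 to 168 CPM per kb in controls. Of the 17 fibroblast markers 4 were lower in both libraries of BW35770 (Col1a1, Col1a2, Col3a1 and Fap) and 5 were higher (Thy1, Twist2, Fbln1, Pdgfra and Pdgfrb). Col3a1 held 1246, 1052 and 420.0 CPM in the tunicamycin libraries of BW35772, BW35773 and BW35770 and 1469, 1482 and 499.9 CPM in their controls. Thy1 stood at 58.0, 114 and 827 CPM in the tunicamycin libraries of BW35772, BW35773 and BW35770 and at 85.2, 118 and 752 CPM in their controls. The markers thus did not share a direction. The summed level of the whole fibroblast list was 5374 to 6051 CPM per kb with tunicamycin and 5953 to 6629 CPM per kb in controls, most of it Vim, with 3389 to 4251 CPM per kb with tunicamycin and 3949 to 4415 CPM per kb in controls, and 1 of its 17 members fell, Prrx1, a call lost without the block, as were those for Notch3 and Krt14 in the next lists.

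For the osteoblast list the summed level was 509.7 to 1096 CPM per kb with tunicamycin and 587 to 1439 CPM per kb in controls, lowest in BW35770 in both groups. Most of that sum was Spp1, osteopontin, with 978, 725 and 444 CPM in the tunicamycin libraries of BW35772, BW35773 and BW35770 and 1232, 801 and 491 CPM in their controls. Of its 4 tested members 2 fell, Sp7 and Dlx5, against 2.40% of all tested genes. The osteoblast factor Sp7 was present in every library, with 31.4, 31.9 and 14.6 CPM with tunicamycin and 143.8, 129.6 and 61.5 CPM in the controls. Dmp1 and Sost, genes of osteocytes, were at 0 in all libraries. In the lists that follow, called genes stand beside the same 3.07% higher and 2.40% lower, and lists of 3 to 8 genes give coarse shares. Smooth muscle and pericyte genes summed to 1191 to 2120.2 CPM per kb with tunicamycin and 1750.3 to 2438 CPM per kb in controls; 1 of 8 fell, Notch3. Immune genes summed to 72.3 to 161 CPM per kb with tunicamycin and 91.8 to 185 CPM per kb in controls, highest in BW35770 in both groups, with Cd3e and Tyrobp at 0. Tenocyte genes summed to 24.4 to 60.3 CPM per kb with tunicamycin and 7.65 to 52.3 in controls, with 1 of 4 higher, Egr1, and Tnmd at 0. Schwann cell genes summed to 31.5 to 47.8 CPM per kb with tunicamycin and 33.3 to 43.9 in controls, and skeletal muscle genes to 12.8 to 15.4 with tunicamycin and 13.1 to 22.9 in controls, with Myf5 and Pax7 at 0. Keratinocyte genes summed to 4.32 to 10.0 CPM per kb with tunicamycin and 6.66 to 16.3 in controls, with 1 of 3 lower, Krt14, and Dsg3, Ivl and Krt1 at 0. Melanocyte genes summed to 4.23 to 6.62 CPM per kb with tunicamycin and 3.42 to 5.61 in controls, with Kit at 0. Endothelial genes summed to 0.963 to 1.43 CPM per kb with tunicamycin and 1.24 to 2.42 in controls.

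**Figure D5:**
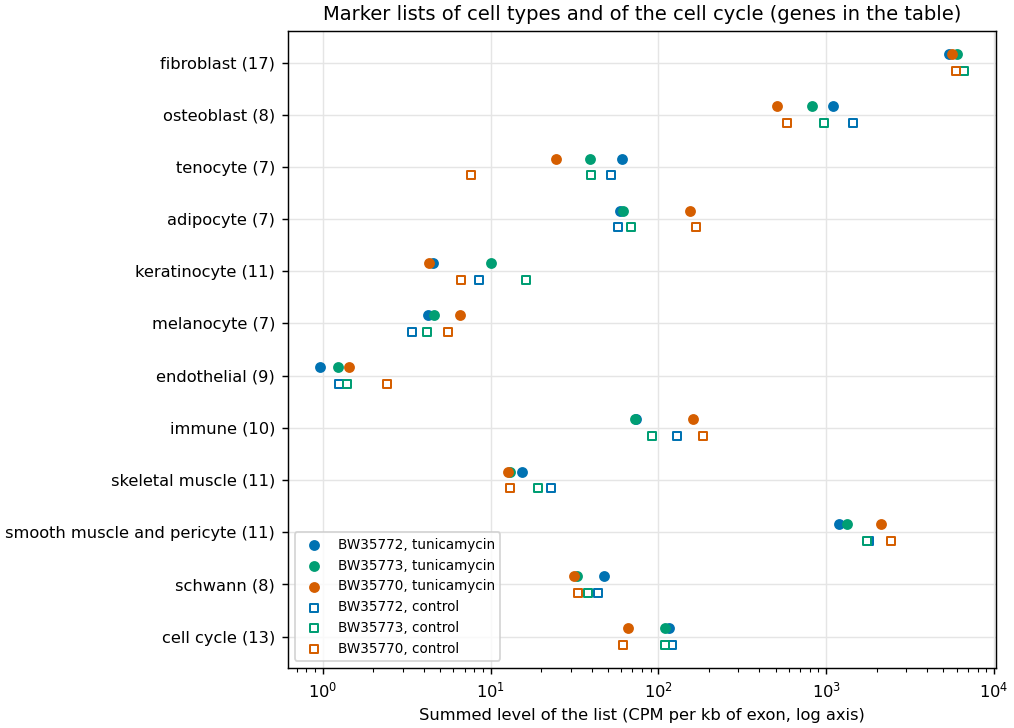
Summed level of each marker list (CPM per kb of exon, log axis; number of genes found in the table in brackets), with tunicamycin libraries as filled circles, control libraries as open squares and animals in colours. The fibroblast list, most of whose sum is Vim, is highest, while the adipocyte and cell cycle lists set BW35770 apart, above and below.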

How the data were processed

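RNA from primary ear fibroblasts was measured in 6 directional paired-end libraries. The authors deposited raw gene counts, made with STAR 2.6.1, SAMtools 1.6 and featureCounts (Subread), per the submitters' processing notes. For the build, the annotation release and multi-mapping reads, nothing is stated in the sources used here. Counting was strand-specific by the table's title alone. Gene names, scaffolds and exon lengths are those of the table, in which 6252 genes have no name. From the counts, genes were kept by filterByExpr in edgeR 4.0.16 (R 4.3.3; minimum count 10, minimum total 15), scaled by TMM and tested by the two-sided quasi-likelihood test of tunicamycin against control with the animal as a block, with Benjamini-Hochberg adjustment over all 13503 tested genes and a threshold of 0.05. SE is the log2 fold change divided by the square root of F, and 95% intervals use the test's degrees of freedom. Levels are CPM on TMM-scaled library sizes, divided by kb of exon where genes are compared. Differences within an animal, and fold differences and ranges between animals, use log2 CPM (prior count 2). A fold difference between animals is therefore a ratio of geometric means and can differ from the ratio of the CPM shown. The pairing comes from the animal number in the titles. Deviations from group means correlated at 0.41, 0.22 and 0.66 across genes within BW35772, BW35773 and BW35770. Between libraries of different animals the correlation ran from -0.45 to 0.13, the highest for tunicamycin of BW35772 with the control of BW35773. No library copied another (chi-square per degree of freedom 34.0 to 309.6). In the fit with the block, p-values rest only in part on how far the difference within an animal varied over the 3 animals. edgeR draws each gene's variance toward a trend over all genes, so SE and p do not measure the spread over the 3 animals alone.

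The members, lists and tests were chosen with earlier results of these data known. Members that passed the threshold, the 10 with the highest level per length and 6 standard markers are given with full statistics; other members were described after their values were seen. Of the function lists, called genes are named. Alternatives were the fit without the block, other scalings and filters, DESeq2 1.42.0, limma-voom (limma 3.58.1) and leaving out animals or libraries. The test steps were tested on simulated data. No sequences were used here.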

Additional observations from a re-analysis of the deposited data

How the results depend on the processing

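The counts of cartilage genes called depended on the fit: with tunicamycin 1 was higher and 1 lower, while the lower count was 0 without the replicate block, 2 with no filter, 2 with limma-voom and 4 with DESeq2 (Fgfr3, Mgp, Prelp and Scrg1). Leaving out an animal or a library gave 0 to 2 higher and 0 to 3 lower, and a median log2 fold change of -0.50 to 0.0827. Without the pair of BW35770 neither Wwp2 nor Prelp was called; without the block and 1 library, Wwp2 was called only when the tunicamycin library of BW35773 was left out, and Prelp never. Without the replicate block the log2 fold change of Col2a1 was -0.0105. Leaving out 1 animal or library, the log2 fold changes of genes that were not called and turned direction ran from -0.60 to 0.53 for Col2a1, from -0.30 to 0.28 for Acan, from -0.62 to 0.83 for Comp, from -0.95 to 0.32 for Matn4, from -0.57 to 0.0110 for Pth1r, from -0.79 to 0.00689 for Alpl and from -2.24 to 0.0827 for Scrg1; the outer values come from unpaired fits, in which the animals no longer balance. The 16 called genes of the function and marker lists kept their direction in every alternative, and 8 were called without the block and 4 without the pair of BW35770. Genes of a few counts, such as Matn1, Ihh and Col10a1, are limited by depth.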
